A study of Arabidopsis thaliana with 22 samples.

Results

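AT3G09440, which encodes a cytosolic heat shock protein 70 (HSP70), and Cpn60beta2 (AT3G13470), which encodes a plastid chaperonin subunit, were followed through the life of a single Arabidopsis leaf at ambient and elevated CO2. Each gene was read by 1 probe set annotated to that gene alone, so 2 of the 6734 genes with a named probe set of their own are described. Cytosolic HSP70 genes resemble each other in sequence, and cross-hybridisation to this probe set was not tested. The members were picked with results of the same arrays known: AT3G09440 for its CO2 difference in mature leaves and Cpn60beta2 for its drop between expanding and mature leaves at ambient CO2. Those 2 differences are therefore given as descriptions without a test.

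Wild-type Col-0 plants were kept at 370 ppm CO2 for 7 days, under a 10 h day at 21 °C and a 14 h night at 18 °C with 300 µmol m-2 s-1 of light. They were then divided at random over 2 chambers, one held at 370 ppm (ambient) and one at 750 ppm (elevated), so chamber and CO2 cannot be told apart. Leaf 10 was taken as a primordium, during rapid expansion, or fully expanded (mature). Primordia were dissected and 20 plants were pooled per replicate. There were 4 arrays per CO2 level for primordia, 3 for expanding leaves and 4 for mature leaves, 22 in all.

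HSP70 proteins bind unfolded stretches of other proteins and release them in a cycle driven by ATP. J-domain proteins deliver the clients, nucleotide exchange factors such as Fes1 open the cycle, and the Hop adaptor passes clients on to HSP90. Cytosolic HSP70 genes are known for both a constant housekeeping level and induction by heat. Plastid chaperonin is a barrel built of Cpn60 alpha and beta subunits and capped by small co-chaperonins, and it is best known for folding newly made proteins of the chloroplast, the large subunit of Rubisco among them.

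The deposited values are log2 expression values with the median probe set of each array at 0. A level below is a log2 value relative to that median, and a difference of 1 is a 2-fold change if the logarithm is to base 2, as the span of the values implies. Levels of different probe sets are not set against each other. Tests come from limma, fitted across all 12511 probe sets and 22 arrays, with p-values adjusted by the Benjamini-Hochberg method, and the threshold for a call was an adjusted p of 0.05. Errors are SDs beside levels and standard errors (SE) beside differences.

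The stage labels were checked first. Averaged over the 2 measured marker genes of dividing cells, AUR1 and PRL, the level per array lay between 1.10 and 1.45 in primordia, between -1.02 and -0.38 in expanding leaves and between -2.42 and -1.42 in mature leaves. The mean of the 5 measured photosynthesis markers lay between 3.69 and 4.13 in primordia and between 4.63 and 5.16 in the later stages. Within groups, the correlation r between replicate arrays lay between 0.969 and 0.992. Elevated mature replicates 3 and 4 stood apart on the second principal component, at 36.3 and 27.7 against -7.74 to 14.9 for the other mature arrays, and the members' mature values, and any named gene whose call or sign these arrays changed or whose value they moved by over 1.5 times, are given with and without them. Markers of vascular cells (xylem, phloem) and of the shoot meristem had no named probe set and were not analysed here. In such whole-tissue RNA, fewer cells of a type and less RNA per cell cannot be told apart.

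AT3G09440 had its highest means in primordia and differed little there between CO2 levels. At ambient CO2 the primordia arrays read 3.19, 2.89, 3.03 and 3.15, and at elevated CO2 they read 3.08, 3.12, 3.01 and 3.15. The arrays of the CO2 levels were interleaved within a span of 0.3, with means of 3.07 ± 0.13 (SD, n = 4) and 3.09 ± 0.06 (SD, n = 4). The CO2 difference in primordia was 0.02 ± 0.16 (SE; 95% interval -0.32 to 0.37; limma adjusted p 0.9996), and an exact two-sided permutation test over the arrays gave p = 0.800. This interval holds changes in both directions.

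In expanding leaves AT3G09440 read 2.65, 2.98 and 2.58 at ambient CO2 and 2.55, 2.75 and 2.62 at elevated CO2. The ranges of the 2 groups overlapped, and their means were 2.74 ± 0.22 (SD, n = 3) and 2.64 ± 0.10 (SD, n = 3). The CO2 difference was -0.10 ± 0.19 (SE; 95% interval -0.49 to 0.30; limma adjusted p 0.848; exact permutation p = 0.600, where 0.10 is the smallest that 3 against 3 arrays allow). No probe set in the table was called for CO2 at this stage (0% of 12511; 1837 at an unadjusted p under 0.05).

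In mature leaves AT3G09440 read 0.94, 1.31, 1.75 and 1.95 at ambient CO2 and 2.62, 2.64, 2.40 and 2.10 at elevated CO2. Every elevated array lay above every ambient array, and the closest pair was elevated replicate 4 and ambient replicate 4. The means were 1.49 ± 0.46 (SD, n = 4) and 2.44 ± 0.25 (SD, n = 4), a difference of 0.95 ± 0.16 (SE), or 1.94-fold, which the gene was chosen for. Of all probe sets, 3.9% were called at this stage (1.76% higher and 2.14% lower at elevated CO2), and 9.22% had arrays that did not overlap between CO2 levels, 4.45% with the elevated arrays higher. The difference ran from 0.77 without ambient replicate 1 to 1.11 without ambient replicate 4, and it was 1.14 without elevated replicates 3 and 4. By size it stood at rank 44 among the positive differences of the 12511 probe sets. The 3-prime minus 5-prime signal of the control transcripts, a measure of RNA quality, lay between 2.14 and 2.31 on the ambient and between 1.99 and 2.36 on the elevated mature arrays, so these ranges overlapped.

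**Figure D1:**
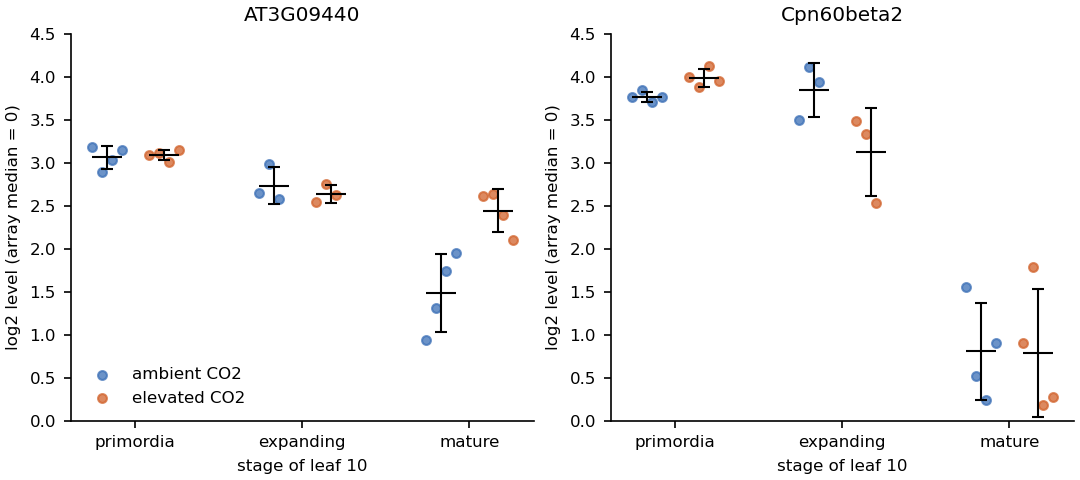
Log2 level of AT3G09440 (left) and Cpn60beta2 (right) on each array, by stage of leaf 10 and CO2 level, with the array median at 0; points are arrays, horizontal bars are means and whiskers are SDs. AT3G09440 at ambient CO2 lies at 0.94 to 1.95 in mature leaves, below every other array, while Cpn60beta2 lies at 0.19 to 1.79 in mature leaves at both CO2 levels, below every primordia and expanding array.

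Along the life of the leaf the mean of AT3G09440 was lower at each later stage. Between primordia and expanding leaves the change at elevated CO2 was -0.45 ± 0.18 (SE; limma adjusted p 0.0282), and all 3 expanding arrays lay below all 4 primordia arrays. At ambient CO2 it was -0.33 ± 0.18 (SE; limma adjusted p 0.106), which did not pass, and expanding replicate 2 at 2.98 overlapped the primordia. The exact permutation p-values were 0.0286 and 0.0857, or 0.0667 and 0.120 after adjustment over the 7 such tests of both genes. The call at elevated CO2 was lost without primordia elevated replicate 4 (-0.43, limma adjusted p 0.0554), without expanding elevated replicate 1 (-0.41, limma adjusted p 0.0866) or without expanding elevated replicate 3 (-0.44, limma adjusted p 0.0651). At this step 33.9% of all probe sets were called lower at elevated CO2 and 31.2% at ambient CO2, and 34.1% had every elevated primordia array above every elevated expanding array.

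From expanding to mature leaves AT3G09440 fell, taken as the mean of both CO2 levels, by 0.72 ± 0.13 (SE; limma adjusted p 5.38e-05) on the log2 scale, a contrast that is orthogonal to the CO2 difference in mature leaves. Without elevated mature replicates 3 and 4 it was -0.63 and was still called. The same contrast was called lower for 31% of all probe sets. Split by CO2 level, the difference was -1.25 ± 0.18 (SE) at ambient CO2 and -0.20 ± 0.18 (SE) at elevated CO2. These 2 values share the mature arrays that the gene was chosen on and are given without a test. At ambient CO2 all 4 mature arrays lay below the lowest expanding array at 2.58, whereas at elevated CO2 mature replicates 1 and 2, at 2.62 and 2.64, lay within the expanding range of 2.55 to 2.75. Without elevated mature replicates 3 and 4 the elevated value was -0.01.

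The CO2 difference of AT3G09440 in mature leaves exceeded that in primordia by 0.93 ± 0.23 (SE) and that in expanding leaves by 1.05 ± 0.25 (SE). Both values contain the difference that the gene was chosen for and are given without a test. Ordered by mean, the levels ran from elevated primordia (3.09) and ambient primordia (3.07) through ambient expanding (2.74), elevated expanding (2.64) and elevated mature leaves (2.44) to ambient mature leaves (1.49). Each neighbouring pair in that order overlapped except the last.

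Replicates of AT3G09440 were tightest in primordia. The SD was 0.13 and 0.06 in the primordia groups, 0.22 and 0.10 in expanding leaves, and 0.46 and 0.25 in mature leaves, ambient first in each case. The fit uses 1 spread per probe set for all stages, so the SE printed for mature leaves rests in part on the tighter primordia arrays.

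Cpn60beta2 had its highest means in primordia and in ambient expanding leaves. In primordia it read 3.76, 3.84, 3.70 and 3.77 at ambient CO2 and 3.99, 3.88, 4.13 and 3.95 at elevated CO2. Every elevated array lay above every ambient array, though by little, and the means were 3.77 ± 0.06 (SD, n = 4) and 3.99 ± 0.11 (SD, n = 4). The difference was 0.22 ± 0.29 (SE; 95% interval -0.39 to 0.82), which did not pass in limma (adjusted p 0.9996). The fit's single spread is wider than that of these arrays, since the SDs of mature leaves, 0.57 and 0.74, enter it. The exact permutation p was 0.0286, the smallest that 4 against 4 arrays allow, and 0.0667 after adjustment over the 7 tests. Of all probe sets, 3.22% had primordia arrays that did not overlap between CO2 levels, and 1.5% had the elevated arrays higher.

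In expanding leaves Cpn60beta2 read 3.50, 4.11 and 3.94 at ambient CO2 and 3.49, 3.34 and 2.54 at elevated CO2. The groups did not overlap, but the closest arrays, replicate 1 of each, lay at 3.50 and 3.49, and 20.4% of all probe sets were separated at this stage, 12.9% with the ambient arrays higher. The means were 3.85 ± 0.32 (SD, n = 3) and 3.12 ± 0.51 (SD, n = 3), a difference of -0.73 ± 0.34 (SE). It is given without a test because the ambient arrays took part in the choice of the gene. It ran from -0.44 without elevated replicate 3 to -0.91 without elevated replicate 1. The mean of the dividing-cell markers lay between -0.66 and -0.38 on the ambient and between -1.02 and -0.80 on the elevated expanding arrays. Of these markers AUR1 was separated, at -1.12 to -0.49 on the ambient and -1.49 to -1.23 on the elevated arrays. PRL overlapped, at -0.26 to -0.16 and -0.59 to -0.11. The 5 photosynthesis markers lay between 5.05 and 5.16 on the ambient and between 4.86 and 5.07 on the elevated expanding arrays. On the first principal component, which held 81.3% of the variance, the ambient expanding arrays lay at -21.5, -10.5 and -11.3 and the elevated ones at -23.6, -31.0 and -32.4, nearer to the mature arrays (-63.9 to -50.2). The part of these measures in the Cpn60beta2 difference was not tested.

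In mature leaves Cpn60beta2 read 1.56, 0.52, 0.25 and 0.90 at ambient CO2 and 0.90, 1.79, 0.19 and 0.27 at elevated CO2. The groups overlapped over nearly their whole range, with means of 0.81 ± 0.57 (SD, n = 4) and 0.79 ± 0.74 (SD, n = 4). The CO2 difference was -0.02 ± 0.29 (SE), given without a test because the ambient arrays took part in the choice of the gene. It went either way as arrays were left out, from -0.35 without elevated replicate 2 to 0.23 without ambient replicate 1, and it was 0.54 without elevated replicates 3 and 4, the lowest of the elevated mature arrays for this gene.

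Between primordia and expanding leaves Cpn60beta2 fell at elevated CO2, by 0.87 ± 0.31 (SE; limma adjusted p 0.0185) on the log2 scale, with all 3 expanding arrays below all 4 primordia arrays (exact permutation p = 0.0286, or 0.0667 after adjustment over the 7 tests). Without expanding elevated replicate 3, the array at 2.54, the change was -0.57 and was not called (limma adjusted p 0.142). At ambient CO2 the same step was 0.08 ± 0.31 (SE) and the groups overlapped. The CO2 difference in expanding leaves differed from that in primordia by -0.95 ± 0.44 (SE), which contains arrays of the choice and is given without a test. As above, 33.9% of all probe sets were called lower at this step at elevated CO2.

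Among the stage differences of Cpn60beta2, those from expanding to mature leaves were the largest at either CO2 level. At ambient CO2, where the gene was chosen, the difference was -3.04 ± 0.31 (SE), and all 4 mature arrays lay below all 3 expanding arrays. At elevated CO2, on arrays not used in the choice, it fell by 2.33 ± 0.31 (SE; limma adjusted p 1.30e-05), to 0.198 times the level of expanding leaves. Every elevated mature array, up to 1.79, lay below every elevated expanding array, down to 2.54. The exact permutation p of that comparison was 0.0571, or 0.10 after adjustment over the 7 tests. Without mature elevated replicates 3 and 4 the change was -1.78 and was still called. In all, 20.9% of probe sets were called lower at this step at elevated CO2 and 24.6% at ambient CO2. Separated arrays with expanding leaves higher were found for 20.7% at elevated and 24.9% at ambient CO2.

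Ordered by mean, the levels of Cpn60beta2 ran from elevated primordia (3.99), ambient expanding (3.85) and ambient primordia (3.77) to elevated expanding (3.12), then to ambient mature (0.81) and elevated mature leaves (0.79). The first 3 groups overlapped as neighbours, as did the mature pair. Ambient primordia and elevated expanding leaves did not overlap, nor did elevated expanding and ambient mature leaves.

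**Figure D2:**
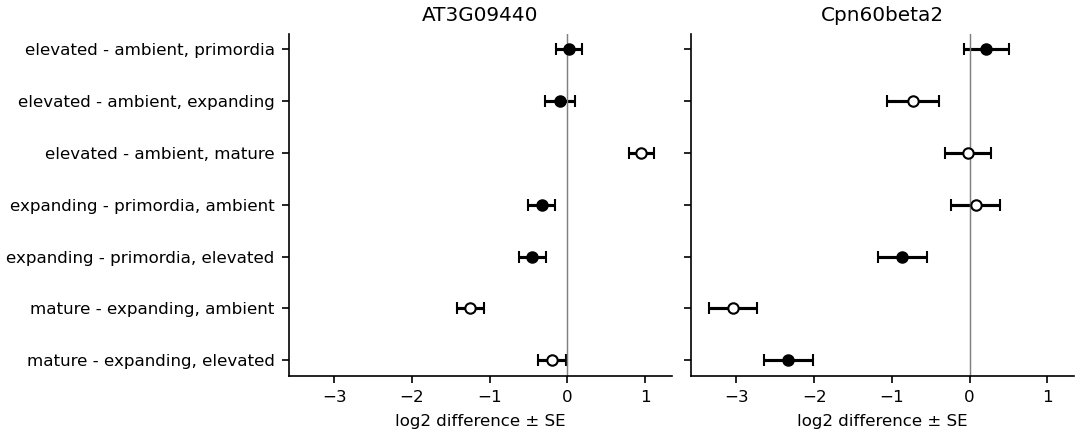
Log2 differences of AT3G09440 (left) and Cpn60beta2 (right) between groups, with SE whiskers from the limma fit; filled points were tested, and open points use arrays on which the gene was chosen and carry no test. For AT3G09440 the CO2 difference is 0.95 in mature leaves and within 0.10 of 0 before, and for Cpn60beta2 both steps from expanding to mature leaves lie below -2.

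The other measured genes of the plastid chaperonin changed at other steps or by less. Of 8 further loci on that list, 3 had a probe set of their own. Cpn60beta3, a sister beta subunit, fell early: from 0.97 ± 0.22 (SD, n = 4) in ambient primordia to -0.96 ± 0.19 (SD, n = 3) in ambient expanding leaves, a change of -1.93 ± 0.13 (SE; limma adjusted p 1.83e-10), and by -0.56 ± 0.13 (SE) thereafter. Cpn60beta4, a beta subunit known in Arabidopsis for assembly of the plastid NDH complex, rose first, by 1.25 ± 0.14 (SE; limma adjusted p 1.02e-07) at ambient and 1.10 ± 0.14 (SE) at elevated CO2. It then fell by 0.40 ± 0.14 (SE) and 0.51 ± 0.14 (SE). AT3G60210, a GroES-like co-chaperonin gene, fell at both steps, by 0.36 ± 0.13 (SE) and 0.78 ± 0.13 (SE) at ambient CO2 and by 0.66 ± 0.13 (SE) and 0.63 ± 0.13 (SE) at elevated CO2, where the later step was -0.34 without mature elevated replicates 3 and 4 and was still called (limma adjusted p 0.0121).

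All 3 of these genes were called lower from expanding to mature leaves at ambient CO2 and 2 of 3 at elevated CO2, where Cpn60beta3 was at -0.30 ± 0.13 (SE; limma adjusted p 0.0873). Of all probe sets, 24.6% and 20.9% were called lower at these steps. The call of Cpn60beta4 at ambient CO2 was lost without expanding ambient replicate 1 (-0.34) or mature ambient replicate 2 (-0.33) or 4 (-0.33), and at elevated CO2 without mature elevated replicates 3 and 4 together (-0.33). None of the 3 was called for CO2 at any stage, where 0.00799% (primordia), 0% (expanding) and 3.9% (mature) of all probe sets were called. The fold of Cpn60beta2 at maturation, chosen for its size at ambient CO2, has no counterpart of that size among them, and whether the genes differ from it was not tested.

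Single genes of Rubisco function and of plastid division were followed beside the chaperonin, since Rubisco is its known client. AT3G47650, a BSD2-type chaperone gene, fell from expanding to mature leaves at ambient CO2 (-0.65 ± 0.19 SE; -0.40 without ambient mature replicate 3, still called). At elevated CO2 it was at -0.38 ± 0.19 (SE; limma adjusted p 0.124), and at -0.18 without mature elevated replicates 3 and 4. RCA, Rubisco activase, was at -0.07 ± 0.09 (SE) from expanding to mature leaves at ambient CO2 and at -0.16 at elevated CO2, and neither was called. FTSZ2-1 and FTSZ2-2, filament proteins of plastid division and 2 of the 11 loci on the plastid division and import list, rose by 0.44 ± 0.09 (SE) and 1.02 ± 0.12 (SE) and then fell by 0.56 ± 0.09 (SE) and 0.68 ± 0.12 (SE) at ambient CO2. At elevated CO2 the changes were 0.28 and 0.74, then -0.58 and -0.55. The elevated rise of FTSZ2-1 was 0.18 and not called without expanding elevated replicate 1. Of all probe sets, 35.1% (ambient) and 36% (elevated) were called higher at the first step. At the second, 24.6% and 20.9% were called lower.

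**Figure D3:**
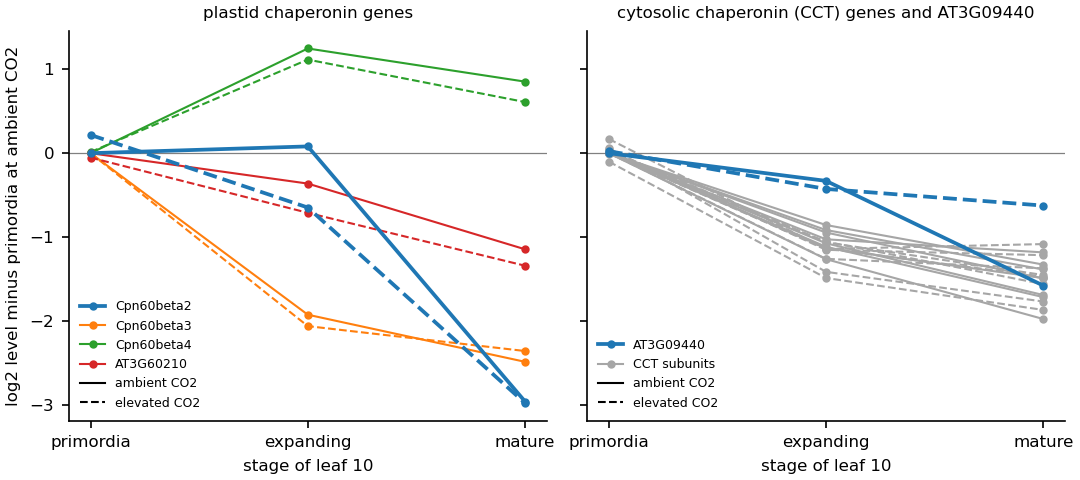
Mean log2 level by stage of leaf 10, set to 0 in ambient primordia for each gene, for the plastid chaperonin genes (left) and for AT3G09440 beside the 8 measured subunits of the cytosolic chaperonin CCT (right); solid lines are ambient and dashed lines elevated CO2. Cpn60beta2 drops most after expansion and Cpn60beta3 before it, and all CCT subunits fall by 0.86 to 1.48 between primordia and expanding leaves, where AT3G09440 is 0.33 to 0.45 lower.

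Cytosolic folding genes beside AT3G09440 could be followed in part. No other gene of the cytosolic HSP70 list had a named probe set of its own (0 of 6). Nor had the lists of organelle HSP70, HSP90, HSP100 and Clp ATPases, heat shock factors and other heat response genes, so those genes were not analysed here. Of the 12511 probe sets, 5467 had no gene name here, so probe sets for these genes may be among them. Of the cytosolic chaperonin CCT, which folds actin and tubulin, 8 of 9 subunits were measured and all 8 fell between primordia and expanding leaves at both CO2 levels, with medians of -1.05 and -1.23, where 31.2% and 33.9% of all probe sets were called lower. From expanding to mature leaves 7 of 8 were called lower at ambient CO2 (median -0.51) and 4 of 8 at elevated CO2 (median -0.34), against 24.6% and 20.9% of all probe sets. The elevated count was 2 without expanding elevated replicate 1 and 3 without mature elevated replicates 3 and 4. AT3G03960, the theta subunit, fell by 0.60 ± 0.10 (SE) and 0.35 ± 0.10 (SE), and the second call was lost without expanding elevated replicate 1 (-0.30) or without mature elevated replicates 3 and 4 (-0.29). None of the 8 was called for CO2 at any stage.

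The partners of HSP70 and HSP90 were examined for CO2 differences in mature leaves, since AT3G09440 was picked there. Of 11 measured HSP70 co-chaperones 1 was called higher, of 3 measured HSP90 co-chaperones 2 were, and none was called lower. In the table as a whole 1.76% were called higher and 2.14% lower. By sign, 7 of the 11 HSP70 co-chaperones were positive and 4 negative. Fes1A, the nucleotide exchange factor of cytosolic HSP70 known for heat tolerance, read -1.42, -1.25, -1.01 and -0.97 at ambient CO2 and -0.91, -0.56, -0.71 and -0.76 at elevated CO2. The Fes1A arrays did not overlap, and its difference was 0.43 ± 0.12 (SE; limma adjusted p 0.0462). Fes1B, on the same list, went the other way, at -0.62, and was not called (limma adjusted p 0.0883). Without elevated mature replicates 3 and 4 Fes1B was at -0.25.

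SGT1A, an HSP90 partner in disease resistance, read -0.25, 0.22, 0.48 and 0.68 at ambient CO2 and 0.80, 0.98, 1.09 and 0.87 at elevated CO2, a difference of 0.65 ± 0.14 (SE; limma adjusted p 0.0200). AT5G48570, an FKBP-type HSP90 partner known as ROF2, read -2.98, -2.13, -1.82 and -1.83 at ambient CO2 and -1.55, -1.24, -1.54 and -1.56 at elevated CO2, a difference of 0.72 ± 0.20 (SE; limma adjusted p 0.0477), which was 0.46 without ambient replicate 1 and was then not called (limma adjusted p 0.153). As with Fes1A, the arrays of both genes were separated by CO2 level. Of all probe sets, 9.22% were separated at this stage, 4.45% with the elevated arrays higher. These genes were called in the same contrast, so the separation adds no support of its own. On the ambient mature arrays, replicate 1 was the lowest for AT3G09440, Fes1A, SGT1A and AT5G48570 alike. The single spread of the fit enters these calls too. In mature leaves the SD was 0.40 and 0.13 for SGT1A and 0.55 and 0.15 for AT5G48570, ambient first. In primordia it was 0.10 and 0.09 for SGT1A and 0.27 and 0.14 for AT5G48570. With the mature arrays alone in the fit, Fes1A, SGT1A and AT5G48570 were not called.

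These 3 were the called genes among all 37 measured chaperone genes, 8.11% of them, against 3.9% of all probe sets called and 1.76% called higher. The median difference of the 37 was 0.11 against -0.02 over all probe sets, and 25 of 37 were positive. The count of 3 was 0 without ambient mature replicate 1 or 2 or elevated mature replicate 3, 6 without ambient mature replicate 4, 5 without elevated mature replicate 2, and 1 without ambient mature replicate 3, elevated mature replicate 4, or any 1 of 6 arrays of the younger stages, in each of which it was SGT1A. Without elevated mature replicates 3 and 4 together it was also 0, although the differences of Fes1A, SGT1A and AT5G48570 were then 0.43, 0.61 and 0.80. The 4 measured ER folding genes all had positive differences and none was called: ATERDJ3B, an ER J-domain protein, was at 0.50 ± 0.17 (SE; limma adjusted p 0.0927), CRT1b, a calreticulin, at 0.49 ± 0.18 (SE) and BZIP60, a transcription factor of the unfolded protein response, at 0.37 ± 0.16 (SE). Without elevated mature replicates 3 and 4 ATERDJ3B was at 0.29, CRT1b at 0.22 and BZIP60 at 0.25.

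**Figure D4:**
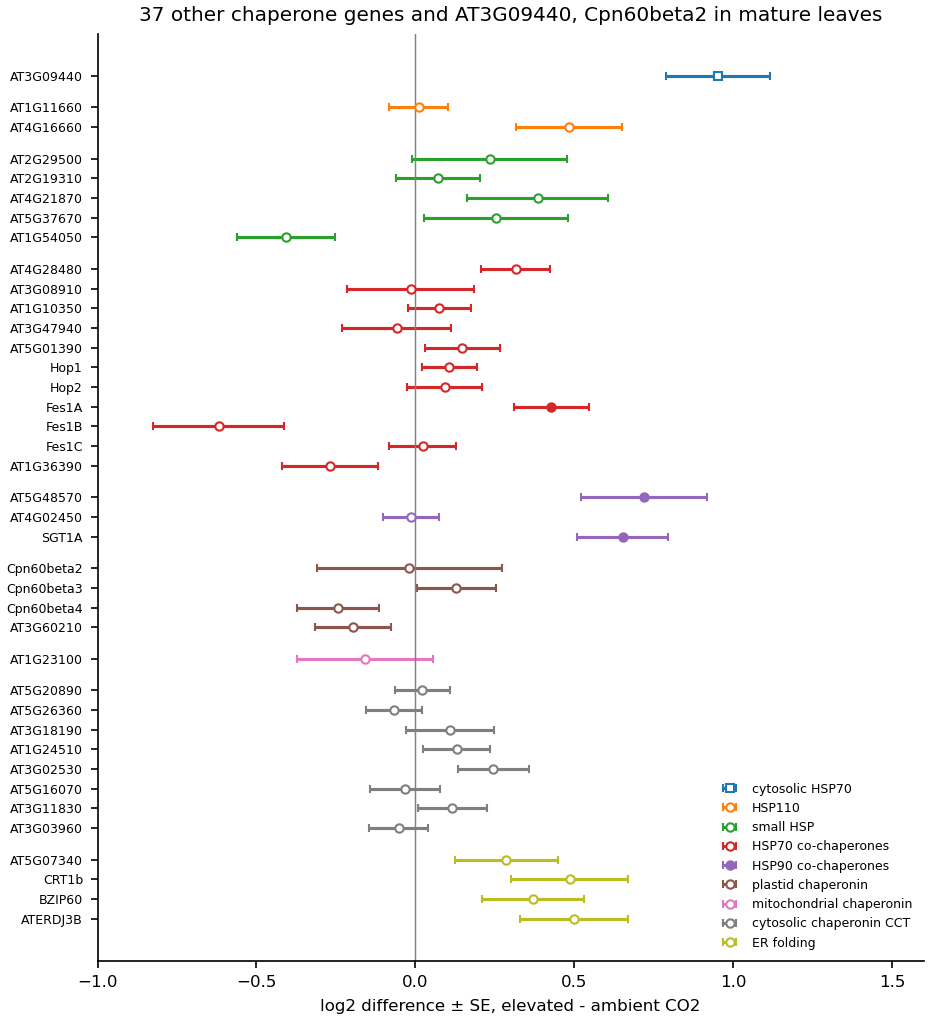
Log2 difference between elevated and ambient CO2 in mature leaves, with SE whiskers, for AT3G09440, Cpn60beta2 and the 37 other measured chaperone genes, coloured by list; filled circles were called in limma, and the open square is AT3G09440, which was chosen on this difference. Fes1A, SGT1A and AT5G48570 are called, at 0.43 to 0.72, and Cpn60beta2 lies at -0.02.

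The remaining chaperone lists were not called for CO2 in mature leaves. HSP110, relatives of HSP70 that act as its exchange factors, had 2 of 4 loci measured: AT4G16660 was at 0.48 ± 0.17 (SE; limma adjusted p 0.0983) and AT1G11660 at 0.01 ± 0.09 (SE). Of the small heat shock proteins, which hold unfolded proteins without ATP, 5 of 16 were measured, and AT1G54050 was at -0.41 ± 0.15 (SE) and AT4G21870 at 0.38 ± 0.22 (SE). Without elevated mature replicates 3 and 4 they were at -0.24 and 0.85. AT1G23100, a GroES-like gene and the 1 measured locus of 5 on the mitochondrial chaperonin list, was at -0.16 ± 0.21 (SE), and at 0.04 without those arrays. In primordia and in expanding leaves limma called 0 of the 37 chaperone genes for CO2, with 1 and 9 at an unadjusted p under 0.05, and 0.00799% and 0% of all probe sets were called there.

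With leaf age the chaperone genes fell more often than they rose. Subunits of 1 complex, the CCT, are among them. They gave 8 of the falls below from primordia to expanding leaves at either CO2 level. From expanding to mature leaves they gave 7 at ambient and 4 at elevated CO2. Between primordia and expanding leaves 22 of 37 fell and 6 rose at ambient CO2 (75.7% called against 66.3% of all probe sets, 31.2% lower and 35.1% higher). At elevated CO2, 24 fell and 5 rose (78.4% called against 69.9%, 33.9% lower and 36% higher). The median was -0.66 in both cases, against 0.04 and 0.02 over all probe sets. From expanding to mature leaves 16 fell and 3 rose at ambient CO2 (51.4% called against 44.3%, 24.6% lower and 19.7% higher; median -0.25). At elevated CO2, 11 fell and 4 rose (40.5% called against 37.8%, 20.9% lower and 16.9% higher; median -0.11), or 8 and 2 without elevated mature replicates 3 and 4. The fallers at ambient CO2 included Hop1, the HSP70 to HSP90 adaptor (-0.59 ± 0.09 SE), AT1G36390, a GrpE-type exchange factor gene (-1.13 ± 0.16 SE), AT4G02450, a p23-type HSP90 partner (-0.72 ± 0.10 SE), AT1G54050 (-1.31 ± 0.17 SE) and AT1G23100 (-1.14 ± 0.23 SE), while Fes1C rose by 0.46 ± 0.11 (SE).

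The genes whose pattern over the 22 arrays was most like that of each member were ranked by Pearson's r over probe sets with 1 gene, as a description in which the arrays share their stages. For Cpn60beta2 the 5 closest were AT3G23940 (r = 0.984), a dihydroxyacid dehydratase gene of branched-chain amino acid synthesis, MAP1C (0.979), a methionine aminopeptidase, AT4G38950 (0.979), AT3G05730 (0.977) and MRL7-L (0.977). AT3G23940 had group means of 2.81 and 2.82 in primordia, 2.52 and 2.09 in expanding and 1.05 and 1.04 in mature leaves, ambient first. In all, 238 named probe sets had an r over 0.9 to Cpn60beta2.

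For AT3G09440 no named probe set had an r over 0.9. The closest were AT1G34380 (r = 0.870), IQD23 (0.865), an IQ-domain protein gene, AT3G19970 (0.860), TPLATE (0.857), a subunit of an endocytic adaptor complex, and AT2G27590 (0.856). AT1G34380 had group means of 0.18 and 0.33 in primordia, -0.12 and -0.26 in expanding and -1.16 and -0.77 in mature leaves, ambient first. Between AT3G09440 and Cpn60beta2 themselves r was 0.752 over the 22 arrays.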

How the data were processed

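Total RNA of leaf 10 was hybridised to Affymetrix arrays after 3-prime labelling, per the labels. The deposited log2 values cover 12570 probe sets on 22 arrays, between -6.80 and 6.54, each array centred on its median; a change shared by most transcripts is therefore not visible. How the background was corrected and probes were summarised or selected: not given in the sources used here. Precision is limited by the number of arrays.

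After 59 control probe sets were left out, 12511 were tested: 6782 with exactly 1 gene, 262 with several and 5467 unnamed here. Gene symbols follow the TAIR10.1 table, matched by identifier; no coordinates or sequences are printed. One mean per group (6 groups, 16 residual degrees of freedom) was estimated with limma 3.58.1 under R 4.3.3 by lmFit, contrasts.fit and eBayes. Tests were two-sided and the code was tested on simulated data. The labels speak of biological replicates for primordia only; elsewhere the p-values measure the spread between samples, which may be technical. Slides and scan dates were not used here, so no batch was tested.

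The members and the gene lists were chosen with earlier results of these data known. Named genes are the members, every measured HSP70 and plastid chaperonin gene, of every other list the 3 with the smallest p for CO2 in mature leaves and the 3 with the smallest p for expanding to mature leaves at ambient CO2, and the 5 most like each member. Some genes under this rule, and the counts of their list, are not reported here. Where a gene had several probe sets, the one with the highest mean stood for it. Alternatives were quantile normalization, array weights, the compared arrays alone, a replicate block, a filter on the lowest 25% of probe sets by mean and leaving out each array. Added after seeing the data were leaving out elevated mature replicates 3 and 4, the control 3-prime minus 5-prime signal as a covariate, and exact permutation tests.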

Additional observations from a re-analysis of the deposited data

How the results depend on the processing

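Most calls on the members kept their side of the threshold. The fall of AT3G09440 from expanding to mature leaves, as the mean of both CO2 levels, ran from -0.80 to -0.63 over leave-one-out fits and was called in every alternative, as was the fall of Cpn60beta2 at elevated CO2 (-2.67 to -2.13, and -1.78 without elevated mature replicates 3 and 4). The step of AT3G09440 from primordia to expanding leaves lay near the threshold. At ambient CO2 it was called with quantile normalization (-0.47) and with the compared arrays alone (-0.33), and leave-one-out values ran from -0.45 to -0.25; it was also called without mature ambient replicate 1 (adjusted p 0.0494). At elevated CO2 it ran from -0.51 to -0.41 and was lost with the replicate block (-0.43, adjusted p 0.0519). Cpn60beta2 at that step ran from -1.05 to -0.57. The CO2 effects of AT3G09440 in primordia (-0.03 to 0.07) and in expanding leaves (-0.18 to 0.03) and of Cpn60beta2 in primordia (0.17 to 0.25) were called in no alternative.

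The untested CO2 difference of AT3G09440 in mature leaves ran from 0.77 to 1.11 and the ambient drop of Cpn60beta2 from -3.29 to -2.86. The count of 3 chaperone genes called for CO2 in mature leaves ran from 0 to 6 over leave-one-out fits, and was 1 with array weights, 0 with the compared arrays alone and 0 without elevated mature replicates 3 and 4; the cause was not tested. Fes1A lost its call in 17 of 29 alternatives, SGT1A in 5 of 29 and AT5G48570 in 23 of 28, all with the direction kept. Over all alternatives the chaperone counts from expanding to mature leaves ran from 16 to 23 at ambient and from 10 to 18 at elevated CO2. Those from primordia to expanding leaves ran from 25 to 29 and from 25 to 33, and over leave-one-out fits from 26 to 29 and from 28 to 31. The filter on the lowest 25% of probe sets removes some chaperone genes, AT1G23100 and AT5G48570 among them, so its counts are over fewer genes. Samples with the same replicate number share only a number: their deviations from the group means correlated between -0.25 and 0.26, over 0.1 in 4 of 11 pairs, and 6 of 22 arrays correlated best with their own number. The replicate block left the chaperone count in mature leaves at 3 and changed no other call on the members. AT5G48570 was in the lowest 25% of probe sets and has no value under that filter.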
